A study of Homo sapiens with 12 samples.

Results

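The 6 libraries described here are those of HT1080 cells given siRNA against both TRIP12 and OTUD5 (siTRIP12+siOTUD5, 3 libraries) and those given siRNA against OTUD5 alone (siOTUD5, 3 libraries), out of 12 in the series. They were chosen by their labels, and they ask what loss of TRIP12 changes in cells whose OTUD5 transcript is already low. HT1080 is a human fibrosarcoma line. The other 6 libraries, 3 of cells given siTRIP12 alone and 3 given a scrambled siRNA, show the effect of siTRIP12 with OTUD5 intact. They also entered the joint fit, and so helped to set its estimate of spread and the genes tested. Scrambled libraries are also the reference for a few changes by siOTUD5 itself. All 4 groups had been transfected, so none shows untreated cells. RNA was total RNA from a column kit, made into stranded mRNA libraries. Neither the siRNA sequences, their amounts, the time after transfection nor the origin of the replicates (separate cultures or not) is stated in the sources used here, so the p-values measure only the spread between these libraries.

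TRIP12 is a ubiquitin ligase of the HECT family, in which the ubiquitin is passed to a cysteine of the ligase before it reaches the substrate. It is known for marking proteins for the proteasome, in part by adding branches to existing ubiquitin chains, and for limiting the ubiquitin response at damaged chromatin. OTUD5 is a deubiquitylase of the OTU family, which takes ubiquitin chains off substrates and is best known from innate immune signalling. Both act on proteins, and the libraries measure transcripts only.

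Library totals ranged from 37912312 to 43881471 reads over the 12 libraries, and from 38035559 to 41678493 reads in siTRIP12+siOTUD5 and from 39570313 to 43459150 reads in siOTUD5. Within each of these groups every pair of libraries correlated at r of 0.9956 or above on log2 CPM (read counts per unit of library total, scaled for library composition). One library outside the comparison, scrambled replicate 3, stood apart from its group on the third principal component, at -35.8 against 10.9 and 30 for the other scrambled libraries, and the counts of called genes are given with and without it. In TPM, which are scaled to transcript length, the summed level of 12 mesenchymal markers was 3520 to 3810 in siTRIP12+siOTUD5 and 3950 to 4090 in siOTUD5. Most of it was VIM (vimentin), and 8 of the 12 markers passed 1 TPM, with THY1, PDGFRA, FAP and NT5E at or near 0. Of 12 epithelial markers 2 passed 1 TPM, and the sum was 3.34 to 4.21 TPM in siTRIP12+siOTUD5 and 4.22 to 4.82 TPM in siOTUD5, with EPCAM and CDH1 near 0. The leukocyte marker sum was 89.4 to 99.1 TPM in siTRIP12+siOTUD5 and 93.1 to 105 TPM in siOTUD5, nearly all of it CD68 and CSF1R, while PTPRC was at 0. Endothelial markers summed to 117 to 122 TPM in siTRIP12+siOTUD5 and 127 to 135 TPM in siOTUD5, with PECAM1 near 0 and nearly all of it TIE1 and ROBO4. Muscle markers summed to 2.56 to 2.78 TPM in siTRIP12+siOTUD5 and 2.64 to 3.84 TPM in siOTUD5, with MYOD1 and MYOG at 0. In bulk RNA, fewer cells that express a gene and less of its RNA per cell cannot be told apart.

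The targeted transcripts followed the labels. TRIP12 (GRCh38, chr2:229763837-229923186) was at 54.4, 50.1 and 55.0 CPM in siTRIP12+siOTUD5 libraries, against 314, 315 and 317 CPM in siOTUD5 libraries. All siTRIP12+siOTUD5 libraries lay far below all siOTUD5 libraries, a log2 change of -2.57 ± 0.08 (SE) with an adjusted p of 5.35e-12 in edgeR's quasi-likelihood test. An exact two-sided permutation test gave p = 0.1, the smallest that 3 against 3 libraries allow. OTUD5 (chrX:48922024-48958381) was at 10.8, 12.3 and 9.62 CPM in siTRIP12+siOTUD5, against 10.6, 10.8 and 11.97 CPM in siOTUD5, so the groups overlapped. Its log2 fold change was -0.03 ± 0.08 (adjusted p = 0.871, exact permutation p = 0.9), and its sign turned to 0.02 without siOTUD5 replicate 3 and to 0.05 without siTRIP12+siOTUD5 replicate 3. OTUD5 thus stood at a like low level on both sides of the comparison, against 73.8 ± 0.275 CPM in siTRIP12 libraries and 59.8 ± 1.13 CPM in scrambled libraries (SD, n = 3 each). Between the last 2 groups it rose by 0.30 ± 0.07 on the log2 scale (adjusted p = 0.00346, quasi-likelihood test). The words OTUD5 intact therefore mean that it was not targeted, not that its level was equal in both. TRIP12 averaged 53.2 ± 2.70 CPM in siTRIP12+siOTUD5 and 41.8 ± 3.92 CPM in siTRIP12, so slightly more of it was left when both siRNAs were given. The interaction, the log2 change by siTRIP12 with siOTUD5 minus that without, was 0.38 ± 0.11 for TRIP12 (adjusted p = 0.0489), a call that was lost in 9 of 12 fits that left out 1 library (highest adjusted p 0.13, without siTRIP12 replicate 1). Whether this small difference in TRIP12, or the rise of OTUD5 with siTRIP12 alone, bears on the results that follow was not tested.

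**Figure D1:**
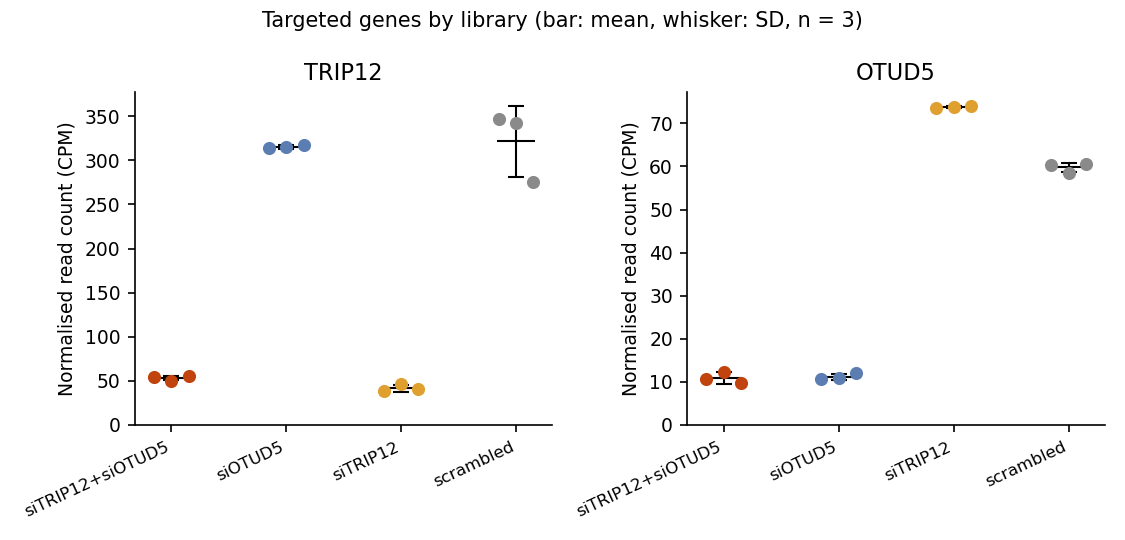
Normalised read count (CPM) of TRIP12 and OTUD5 in each of the 12 libraries, with a point per library, a bar for the group mean and a whisker for the SD (n = 3). TRIP12 is low in both groups given siTRIP12, and OTUD5 lies near 11 CPM in siTRIP12+siOTUD5 and siOTUD5 libraries alike.

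With OTUD5 low, siTRIP12 changed 1370 of 16283 genes tested (8.41%) at an adjusted p under 0.05. Of these, 545 rose (3.35% of genes tested) and 825 fell (5.07%) in siTRIP12+siOTUD5 relative to siOTUD5. Of all calls 39.8% were higher, and 49.2% with upper-quartile scaling. The changes were mostly small, with a median absolute log2 fold change of 0.33 among called genes, and 75 called genes changed by more than 2-fold. In a test against a fold of 1.5, 14 genes passed (0.086%). The libraries of the groups did not overlap for 5382 genes (33.1%). The count of calls depended on which libraries set the estimate of spread. A fit of only the 6 libraries called 2802 genes (17.2%, with 1173 or 7.2% higher and 1629 or 10% lower), and the joint fit without scrambled replicate 3 called 2474 of 16699 genes (14.8%, with 1070 or 6.41% higher and 1404 or 8.41% lower), and each held 1368 (99.9%) of the 1370. Leaving out libraries of the comparison itself gave fewer calls, namely 784, 712 and 740 without siOTUD5 replicate 1, 2 or 3, and 692, 932 and 809 without siTRIP12+siOTUD5 replicate 1, 2 or 3. Among gene types, 1246 of 12901 protein-coding genes were called, 451 higher and 795 lower. Among long non-coding RNAs 90 of 2078 were called, with 72 higher and 18 lower.

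The 12 largest rises and 12 largest falls described next were taken from called protein-coding genes that reached a mean of 100 reads in siTRIP12+siOTUD5 or siOTUD5 and whose groups do not overlap, so the separation of their libraries comes from the choice and is no result. The rises were led by hair keratin-associated genes. KRTAP2-3 (chr17:41059240-41060114), which codes for a matrix protein of the hair shaft, was at 17.1, 22.8 and 18.6 CPM in siTRIP12+siOTUD5, against 5.79, 5.92 and 4.58 CPM in siOTUD5. The lowest siTRIP12+siOTUD5 library was nearly 3 times as high as the highest siOTUD5 library, and the log2 fold change was 1.84 ± 0.14 (adjusted p = 1.13e-06). Its neighbour KRTAP2-4 was at 2.41, 3.14 and 2.09 CPM in siTRIP12+siOTUD5, against 1.06, 0.623 and 0.780 CPM in siOTUD5 (log2 fold change 1.62 ± 0.29, adjusted p = 0.00235). KRTAP2 genes are near-identical copies side by side on chromosome 17, so how the reads were split between them is uncertain and their values are best read together. ZNF404, a zinc finger gene at chr19:43872365-43883964, was at 23.1, 21.4 and 23.0 CPM in siTRIP12+siOTUD5, against 7.91, 6.88 and 8.19 CPM in siOTUD5 (log2 fold change 1.55 ± 0.10, adjusted p = 4.13e-08). MYCT1, named as a target of MYC, was at 84.4, 80.1 and 68.1 CPM in siTRIP12+siOTUD5, against 29.7, 26.3 and 23.5 CPM in siOTUD5 (log2 fold change 1.55 ± 0.10, adjusted p = 1.13e-07). MYCT1 varied more than ZNF404 within siTRIP12+siOTUD5, where its replicate 3 was lowest.

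Of the other rises, FGF5, a fibroblast growth factor, was at 17.3, 17.7 and 15.8 CPM in siTRIP12+siOTUD5, against 8.36, 8.87 and 9.58 CPM in siOTUD5 (log2 fold change 0.92 ± 0.10, adjusted p = 1.49e-05). PLA2G2D, a secreted phospholipase, was at 12.5, 15.7 and 14.9 CPM in siTRIP12+siOTUD5, against 7.94, 7.60 and 7.34 CPM in siOTUD5 (log2 fold change 0.91 ± 0.11, adjusted p = 7.26e-05). CXCL8, the neutrophil chemokine interleukin 8, was at 12.9, 14.2 and 13.7 CPM in siTRIP12+siOTUD5, against 8.43, 7.32 and 6.73 CPM in siOTUD5 (log2 fold change 0.86 ± 0.15, adjusted p = 0.00191). FOSB, a subunit of the transcription factor AP-1, changed by 1.02 ± 0.22 on the log2 scale (adjusted p = 0.00786), and its libraries came close to each other, the lowest at 2.48 CPM in siTRIP12+siOTUD5 and the highest at 2.23 CPM in siOTUD5. Its call was lost without siOTUD5 replicate 1, siOTUD5 replicate 3 or siTRIP12+siOTUD5 replicate 3 (highest adjusted p 0.054). The remaining rises were ZNF582 (1.21 on the log2 scale), MAP3K7CL (0.99), CFAP58 (0.90), which belongs to the axoneme of cilia, and RANBP3L (0.88), a relative of a RAN-binding protein. The call of RANBP3L was lost without siOTUD5 replicate 2 or 3 or siTRIP12+siOTUD5 replicate 1 or 3 (highest adjusted p 0.117).

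The promoter of CXCL8 is shown because it held the AP-1 motif, the only one of 10 promoters of these 12 genes that did. The sequence is from RefSeq (GRCh38.p14, chr4:73740319-73740618, plus strand), runs from 250 bases before to 50 after the gene start, and has in capitals the match to TGANTCA, searched on both strands, which begins at base 114 of the window.
CXCL8: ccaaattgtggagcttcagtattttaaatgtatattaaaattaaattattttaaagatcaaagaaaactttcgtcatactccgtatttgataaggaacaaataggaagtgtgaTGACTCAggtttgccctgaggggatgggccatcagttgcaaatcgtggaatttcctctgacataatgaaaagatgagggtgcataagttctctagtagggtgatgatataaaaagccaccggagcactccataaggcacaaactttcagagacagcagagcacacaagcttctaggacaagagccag

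Of the 12 largest falls, CALB2 (calretinin, a calcium-binding protein, chr16:71358723-71390433) came first, at 4.70, 4.70 and 4.66 CPM in siTRIP12+siOTUD5, against 10.8, 13.8 and 12.9 CPM in siOTUD5. The siTRIP12+siOTUD5 libraries lay below the lowest siOTUD5 library by more than a factor of 2, and the log2 change was -1.41 ± 0.13 (adjusted p = 3.15e-06). UCN2 (urocortin 2, a peptide of the corticotropin-releasing factor family) was at 7.86, 6.89 and 8.03 CPM in siTRIP12+siOTUD5, against 20.8, 17.2 and 17.5 CPM in siOTUD5 (log2 fold change -1.28 ± 0.13, adjusted p = 1.38e-05). UCN2 overlaps PFKFB4, described below, so how reads were split between these genes is uncertain. MMP9, a gelatinase that cleaves basement membrane collagen (chr20:46008908-46016561), was at 6.95, 6.39 and 7.10 CPM in siTRIP12+siOTUD5, against 16.8, 13.5 and 15.5 CPM in siOTUD5 (log2 fold change -1.16 ± 0.09, adjusted p = 1.13e-06). Within siTRIP12+siOTUD5 replicate 2 was the lowest library for UCN2 and MMP9. VGF, a precursor of neuropeptides, was at 9.22, 12.9 and 12.1 CPM in siTRIP12+siOTUD5, against 23.5, 21.3 and 29.0 CPM in siOTUD5 (log2 fold change -1.11 ± 0.12, adjusted p = 4.33e-05). COL6A3, a chain of collagen VI, was at 170, 155 and 169 CPM in siTRIP12+siOTUD5, against 383, 305 and 307 CPM in siOTUD5 (log2 fold change -1.01 ± 0.16, adjusted p = 0.00369). ADAM8, a membrane-bound metalloproteinase, was at 3.52, 4.41 and 3.35 CPM in siTRIP12+siOTUD5, against 8.24, 7.499 and 7.26 CPM in siOTUD5 (log2 fold change -1.03 ± 0.13, adjusted p = 0.000129). Within siOTUD5 replicate 1 was highest for COL6A3 and ADAM8 and replicate 3 for VGF. The others were KCNAB3 (-1.28 on the log2 scale), an accessory subunit of potassium channels, FPR1 (-1.26), the receptor of formylated peptides, PLXNA4 (-1.23), a semaphorin receptor, APCDD1L (-1.01), RAB28 (-0.98), a small GTPase, and TRO (-0.96), the adhesion protein trophinin. All 12 kept their call without each of the 6 libraries in turn, as did the 12 rises other than FOSB and RANBP3L.

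**Figure D2:**
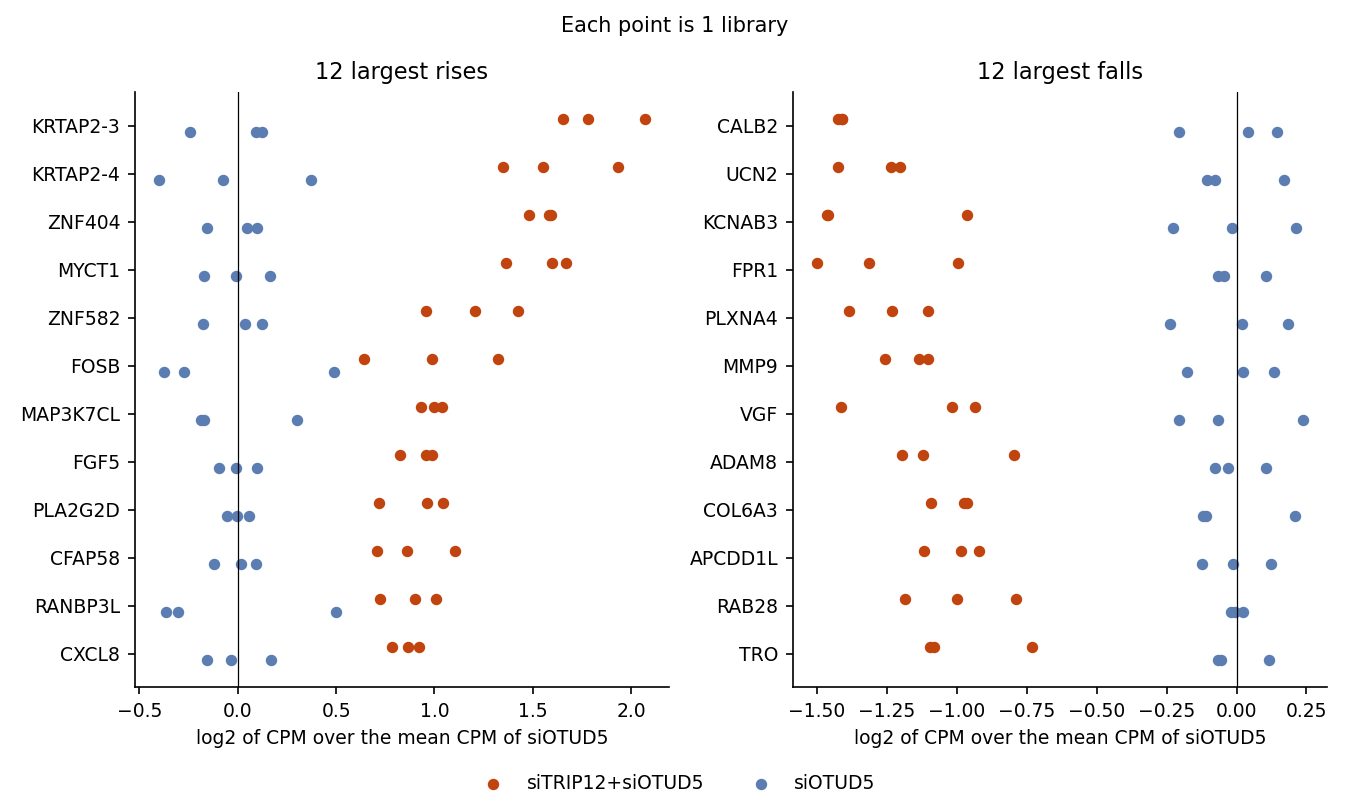
Log2 of the CPM of each library over the mean CPM of the siOTUD5 libraries, for the 12 largest rises (left) and the 12 largest falls (right) among protein-coding genes, with 1 point per library and 3 per group. The genes were chosen for groups that do not overlap, and the gap between the groups is smallest in FOSB and RANBP3L.

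Among the 8 promoters found for the falls, those of UCN2 and FPR1 held the AP-1 motif. The promoter of UCN2 is printed for comparison with that of CXCL8, which moved the other way (RefSeq, GRCh38.p14, chr3:48563732-48564031, minus strand, written in the direction of the gene, the motif in capitals from base 149).
UCN2: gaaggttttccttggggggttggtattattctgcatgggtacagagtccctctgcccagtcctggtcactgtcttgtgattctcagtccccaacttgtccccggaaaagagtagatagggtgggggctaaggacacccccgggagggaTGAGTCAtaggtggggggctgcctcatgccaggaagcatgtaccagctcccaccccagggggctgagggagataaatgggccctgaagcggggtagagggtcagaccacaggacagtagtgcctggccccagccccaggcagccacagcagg
The motif stood in 5.23% of the 11893 promoters of tested genes, in 6.31% of those of genes that rose and in 6.44% of those of genes that fell. The shares for rises and falls therefore differed little from each other and from that of all promoters.

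Genes of the matrix and of its degradation fell more often than they rose. Of 27 tested extracellular matrix genes, 9 fell and 2 rose, so that 40.7% were called against 8.41% of all genes, and the list's median log2 fold change was -0.10 against 0.01 over all genes tested. COL7A1, the anchoring fibril collagen, was at 15.5, 15.3 and 14.03 CPM in siTRIP12+siOTUD5, against 25.9, 24.6 and 27.9 CPM in siOTUD5 (log2 fold change -0.81 ± 0.12, adjusted p = 0.000407). SPARC, a matrix glycoprotein, was at 757, 719 and 739 CPM in siTRIP12+siOTUD5, against 972, 975 and 919 CPM in siOTUD5 (log2 fold change -0.37 ± 0.05, adjusted p = 0.000166). Members of this and the other lists were named for their small p, so the separation of their libraries is no further result. The collagens COL13A1 (-0.55 on the log2 scale) and COL5A1 (-0.63) fell as well. The matrix list gave 5 higher and 11 lower in the fit of only the 6 libraries, and 4 higher and 11 lower without scrambled replicate 3.

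Of 15 matrix metalloproteinases and inhibitors, 4 fell and 1 rose (33.3% called against 8.41% of all genes, median -0.09). Besides MMP9, MMP2, the other gelatinase, was at 42.2, 46.5 and 49.1 CPM in siTRIP12+siOTUD5, against 64.8, 69.6 and 61.6 CPM in siOTUD5 (log2 fold change -0.51 ± 0.06, adjusted p = 0.000129). MMP17 fell by 0.58 on the log2 scale (adjusted p = 0.00232). The member that rose was MMP3 (stromelysin), at 0.42 ± 0.12 (adjusted p = 0.0385), a call lost without each of the 6 libraries except siTRIP12+siOTUD5 replicate 2 (highest adjusted p 0.142) and in the fit with a replicate block. In the plasminogen activator system 2 of 10 tested members fell and 1 rose (30% called, median -0.12), with 4 lower in each of the other fits. PLAU, the urokinase that activates plasminogen, was at 332, 343 and 335 CPM in siTRIP12+siOTUD5, against 480, 440 and 440 CPM in siOTUD5 (log2 fold change -0.43 ± 0.06, adjusted p = 0.000377). S100A10, part of a plasminogen receptor, fell by 0.59 on the log2 scale (adjusted p = 0.000178). SERPINB2, an inhibitor of urokinase, went the other way, at 23.5, 23.5 and 22.2 CPM in siTRIP12+siOTUD5 and 17.1, 17.6 and 17.96 CPM in siOTUD5 (log2 fold change 0.39 ± 0.08, adjusted p = 0.00356).

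Integrins and focal adhesion genes had 4 of 19 members lower and 0 higher (21.1% called against 8.41% of all genes, median -0.13). The list had 8 lower in the fit of only the 6 libraries and 7 without scrambled replicate 3. ITGA3, a laminin-binding integrin chain, was at 766, 810 and 791 CPM in siTRIP12+siOTUD5, against 1108, 1050 and 1031 CPM in siOTUD5 (log2 fold change -0.43 ± 0.06, adjusted p = 0.000416). CD44, the hyaluronan receptor, was at 600, 569 and 625 CPM in siTRIP12+siOTUD5, against 743, 709 and 717 CPM in siOTUD5 (log2 fold change -0.27 ± 0.05, adjusted p = 0.00279). In the TGF-beta and SMAD list 6 of 24 tested members fell and 2 rose (33.3% called, median -0.17). It had 11 lower and 2 higher in the fit of only the 6 libraries, and 10 lower and 2 higher without scrambled replicate 3. Feedback genes of the pathway were among those that fell, with SMAD6 at 9.96, 8.74 and 8.49 CPM in siTRIP12+siOTUD5, against 14.4, 14.1 and 14.02 CPM in siOTUD5 (log2 fold change -0.65 ± 0.10, adjusted p = 0.000468). PMEPA1 fell by 0.50 and LTBP1, which stores latent TGF-beta in the matrix, by 0.32 on the log2 scale. CCN2 (connective tissue growth factor), which stands in this list and among YAP targets, rose (0.51 ± 0.07, adjusted p = 0.000143). Of 9 tested mesenchymal markers 3 were lower, 1 was higher and 5 were not called (44.4% called). SNAI2, a transcription factor of mesenchymal cells, was at 13.7, 13.4 and 14.8 CPM in siTRIP12+siOTUD5, against 21.3, 22.8 and 22.7 CPM in siOTUD5 (log2 fold change -0.67 ± 0.09, adjusted p = 0.000197). CD44 and S100A4 were also lower, the call of S100A4 being lost in 5 of 6 fits without 1 library. CDH2 (N-cadherin) was the marker called higher, and its call was lost in all 6 of these fits.

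YAP and TAZ targets moved both ways, 5 higher and 4 lower of 26 (34.6% called against 8.41% of all genes, median -0.01). The fit of only the 6 libraries had 7 higher and 7 lower. ANKRD1, a nuclear ankyrin-repeat protein and a common readout of YAP, was at 198, 181 and 199 CPM in siTRIP12+siOTUD5, against 118, 120 and 113 CPM in siOTUD5 (log2 fold change 0.72 ± 0.06, adjusted p = 2.2e-06). CCN2 rose with it, while AJUBA, a LIM-domain adaptor, was at 93.2, 95.9 and 98.2 CPM in siTRIP12+siOTUD5, against 123, 134 and 127 CPM in siOTUD5 (log2 fold change -0.42 ± 0.05, adjusted p = 0.000129). WWTR1, the gene of TAZ itself, fell by 0.32 on the log2 scale (adjusted p = 0.00056). Of 27 immediate early and AP-1 genes, 9 fell and 1, FOSB, rose (37.0% called, median -0.08). Negative regulators of growth factor signalling were among the falls. SPRY2, an inhibitor of receptor tyrosine kinase signalling, was at 32.1, 30.7 and 32.3 CPM in siTRIP12+siOTUD5, against 42.6, 46.0 and 43.8 CPM in siOTUD5 (log2 fold change -0.48 ± 0.06, adjusted p = 0.000166). PHLDA1 fell by 0.39, FOSL1, the AP-1 subunit FRA1, by 0.29, and DUSP5, a phosphatase of ERK, by 0.27 on the log2 scale, all with an adjusted p under 0.05 and all kept without each of the 6 libraries.

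Of 28 tested hypoxia and glycolysis genes 8 fell, 0 rose and 20 were not called (28.6% called against 8.41% of all genes, median -0.17 against 0.01 over all genes). The fit of only the 6 libraries had 15 lower and that without scrambled replicate 3 had 14 lower, again with 0 higher. PFKFB4, which sets the level of a glycolytic activator, was at 19.6, 17.5 and 19.7 CPM in siTRIP12+siOTUD5, against 33.4, 31.1 and 33.4 CPM in siOTUD5 (log2 fold change -0.78 ± 0.10, adjusted p = 0.000114). Its span (chr3:48517684-48563136) overlaps that of UCN2 (chr3:48561718-48563781) on the same strand, and COL7A1 (chr3:48564073-48595329) lies beside them. How reads were split between PFKFB4 and UCN2 is uncertain, so their falls may not be separate measurements. ENO2, an enolase, was at 36.1, 36.0 and 40.7 CPM in siTRIP12+siOTUD5, against 56.1, 50.9 and 57.8 CPM in siOTUD5 (log2 fold change -0.55 ± 0.10, adjusted p = 0.00218). The glucose transporter gene SLC2A3 fell by 0.34 and BNIP3L, a receptor for removal of mitochondria, by 0.36 on the log2 scale. The groups did not overlap for these 4 genes, as for 33.1% of all genes tested, and the 4 were named for their small p.

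Of 19 NF-kB and TNF response genes tested, 1 rose, CXCL8, and 1 fell, TNFAIP2 (10.5% called against 8.41% of all genes, median -0.06). TNFAIP2 fell by 0.31 on the log2 scale (adjusted p = 0.0115), a call lost without siOTUD5 replicate 2 or 3 or siTRIP12+siOTUD5 replicate 1 (highest adjusted p 0.0745). Among interleukins, growth factors and receptors of inflammation, 5 of 21 fell and 1 rose (28.6% called), although the list's median was slightly above 0 at 0.03. The fit of only the 6 libraries had 8 lower and 3 higher in this list, and 3 lower and 1 higher in the NF-kB list. CSF1, the macrophage growth factor, was at 61.1, 61.0 and 60.5 CPM in siTRIP12+siOTUD5, against 79.5, 82.4 and 76.8 CPM in siOTUD5 (log2 fold change -0.39 ± 0.06, adjusted p = 0.000478). IL13RA2, a decoy receptor of interleukin 13, rose, at 19.7, 18.97 and 19.8 CPM in siTRIP12+siOTUD5 and 14.1, 11.9 and 12.7 CPM in siOTUD5 (log2 fold change 0.59 ± 0.10, adjusted p = 0.00108). Of 10 acute-phase and complement genes 1 fell and 1 rose (20% called). The one that fell was C3, the central complement component, at 76.6, 75.1 and 77.4 CPM in siTRIP12+siOTUD5, against 116, 113 and 105 CPM in siOTUD5 (log2 fold change -0.55 ± 0.11, adjusted p = 0.0101). The one that rose, CD59, a complement inhibitor (0.19, adjusted p = 0.0209), lost its call in 4 of 6 fits without 1 library (highest adjusted p 0.111, without siOTUD5 replicate 2). Of 27 interferon response genes 2 were lower and 0 higher (7.41% called), with a median of 0.00. These were IFITM3, whose call was lost without siTRIP12+siOTUD5 replicate 1 (adjusted p = 0.0591), and IRF1, whose call was lost in 5 of 6 fits without 1 library (highest adjusted p 0.129, without siOTUD5 replicate 2).

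Keratin-associated and keratin genes were called for 7 of 11 tested members, 5 higher and 2 lower (63.6% against 8.41% of all genes, median 0.20). The higher ones included the 4 KRTAP2 genes, whose copies share reads, so they are not 4 separate measurements. KRT80, a keratin of differentiating epithelium, was at 83.4, 85.1 and 85.9 CPM in siTRIP12+siOTUD5, against 122, 127 and 110 CPM in siOTUD5 (log2 fold change -0.50 ± 0.08, adjusted p = 0.000608).

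Most cell cycle genes were not called, although the share called in the G1/S and G2/M lists was above the 8.41% of all genes. Of 34 G1/S and replication genes 4 rose, 1 fell and 29 were not called (14.7% called, median 0.03 against 0.01 over all genes). The one that fell was CCND1 (cyclin D1, the partner of CDK4 and CDK6), at 380, 338 and 354 CPM in siTRIP12+siOTUD5, against 551, 540 and 524 CPM in siOTUD5 (log2 fold change -0.59 ± 0.06, adjusted p = 4.07e-06). CCNE1 (cyclin E1, which drives entry into S phase) was at 13.7, 13.4 and 15.1 CPM in siTRIP12+siOTUD5, against 10.6, 9.83 and 11.2 CPM in siOTUD5 (log2 fold change 0.42 ± 0.08, adjusted p = 0.00435). RRM2, a subunit of ribonucleotide reductase, rose by 0.23 ± 0.05 (adjusted p = 0.00578). The 2 cyclins thus moved in opposite directions. In the fit of only the 6 libraries the list was even, with 5 higher and 5 lower, and without scrambled replicate 3 it had 4 higher and 3 lower.

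Of 30 G2/M and mitosis genes 4 were higher, 0 lower and 26 not called (13.3%, median 0.08), with 8 higher and 2 lower in the fit of only the 6 libraries and 8 higher and 1 lower without scrambled replicate 3. The 4 were CCNB2, CENPE, CCNA2 and KIF11, with log2 fold changes of 0.18 to 0.26. Each of these calls was lost in 4 or 5 of the 6 fits that left out 1 library, so none of them rested on a wide margin (highest adjusted p 0.175, KIF11 without siTRIP12+siOTUD5 replicate 1). Of 20 replication-dependent histone genes, 4 rose and 1 fell (25% called against 8.41% of all genes), and the median was 0.26. H2AC6 was at 9.38, 9.70 and 9.50 CPM in siTRIP12+siOTUD5, against 6.78, 6.20 and 7.09 CPM in siOTUD5 (log2 fold change 0.51 ± 0.09, adjusted p = 0.00249). Histone transcripts of this kind mostly lack poly(A) tails, so an mRNA library catches them only in part, and histone copies share reads.

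Homologous recombination repairs double-strand breaks from an intact copy, and of 32 tested genes of this pathway and the wider damage response 2 were called, both higher (6.25%, median 0.07). RAD54L, a motor protein of strand exchange, was at 53.9, 54.2 and 50.8 CPM in siTRIP12+siOTUD5, against 41.1, 41.9 and 39.9 CPM in siOTUD5 (log2 fold change 0.37 ± 0.06, adjusted p = 0.000481). FANCD2, a Fanconi anaemia protein, was at 26.0, 26.2 and 27.3 CPM in siTRIP12+siOTUD5, against 19.98, 20.03 and 20.5 CPM in siOTUD5 (log2 fold change 0.39 ± 0.06, adjusted p = 0.000806). The share of the list called was below that of all genes, and in both other fits 4 members were higher and 0 lower.

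p53 targets leaned downward, with 5 of 26 lower and 1 higher (23.1%, median -0.08), and 8 lower and 3 higher in each of the other fits. DDB2, a sensor of ultraviolet damage, was at 82.8, 84.3 and 89.6 CPM in siTRIP12+siOTUD5, against 105, 104 and 111 CPM in siOTUD5 (log2 fold change -0.32 ± 0.05, adjusted p = 0.000923). FDXR, a mitochondrial reductase, fell by 0.37, PHLDA3, an inhibitor of AKT, by 0.36 and BTG2, an antiproliferative factor, by 0.27 on the log2 scale. Apoptosis regulators were mixed, 4 higher and 3 lower of 27 (25.9% called against 8.41% of all genes). The fit of only the 6 libraries had 5 higher and 6 lower. MCL1, which protects cells from apoptosis, was at 397, 404 and 405 CPM in siTRIP12+siOTUD5, against 494, 473 and 481 CPM in siOTUD5 (log2 fold change -0.26 ± 0.05, adjusted p = 0.00277). CASP4, an inflammatory caspase, was at 56.4, 59.6 and 53.7 CPM in siTRIP12+siOTUD5, against 46.5, 45.7 and 42.5 CPM in siOTUD5 (log2 fold change 0.33 ± 0.07, adjusted p = 0.00489).

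Stress and metabolic lists other than hypoxia had 4% to 12% of members called in the reported fit, against 8.41% of all genes. ATF4 and amino acid response genes had 2 of 30 higher and 0 lower (6.67%), one of them ALDH18A1, which makes a precursor of proline. MYC targets and ribosome biogenesis had 2 of 28 lower (7.14%), among them RRS1, which fell by 0.29 on the log2 scale (adjusted p = 0.0028). Of 25 cholesterol synthesis genes 1 was lower and 0 higher (4%), with a median of -0.07. Endoplasmic reticulum stress genes had 1 higher and 1 lower of 23 (8.7%), chaperones 1 higher of 21 (4.76%), and NRF2 and ferroptosis genes 2 higher and 1 lower of 25 (12%). In these 3 lists every named call was lost in at least 4 of the 6 fits without 1 library, with a highest adjusted p of 0.199 for the chaperone gene HSPA8 without siTRIP12+siOTUD5 replicate 3. In the fit of only the 6 libraries ATF4 genes had 5 higher and 1 lower, MYC targets 4 lower and cholesterol genes 6 lower. Endoplasmic reticulum stress genes had 2 higher and 4 lower, chaperones 3 higher and 1 lower, and NRF2 and ferroptosis genes 3 higher and 2 lower. That fit called 17.2% of all genes.

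Lists of the ubiquitin system itself had 10% (HECT ligases, with TRIP12 counted), 6.67% (OTU deubiquitylases) and 3.03% (proteasome subunits) of members called. Of all genes 8.41% were called in the reported fit. Besides TRIP12, the list of HECT ligases, their partners and reported TRIP12 substrates had 2 of 30 members higher, SMURF2 and HECTD2, at 0.24 and 0.28 on the log2 scale. These calls were lost in 3 and 4 of the 6 fits without 1 library (highest adjusted p 0.0955, without siOTUD5 replicate 3, and 0.227, without siTRIP12+siOTUD5 replicate 1). Among 15 OTU deubiquitylases OTUB2 alone was called, at 5.74, 5.86 and 5.29 CPM in siTRIP12+siOTUD5, against 9.31, 10.1 and 9.87 CPM in siOTUD5 (log2 fold change -0.79 ± 0.10, adjusted p = 0.000129). Of 33 proteasome subunit genes 1 was lower, PSMB9, an immunoproteasome subunit (-0.45, adjusted p = 0.0296), and the list's median was 0.01, the same as that of all genes. Its call was lost without siOTUD5 replicate 2 or 3 or siTRIP12+siOTUD5 replicate 1 or 3 (highest adjusted p 0.148). The fit of only the 6 libraries called 9 higher and 2 lower of 30 in the HECT list, and 2 higher and 5 lower of 33 proteasome subunits. Of all genes it called 7.2% higher and 10% lower, so for the HECT list the number of calls depended on the fit.

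**Figure D3:**
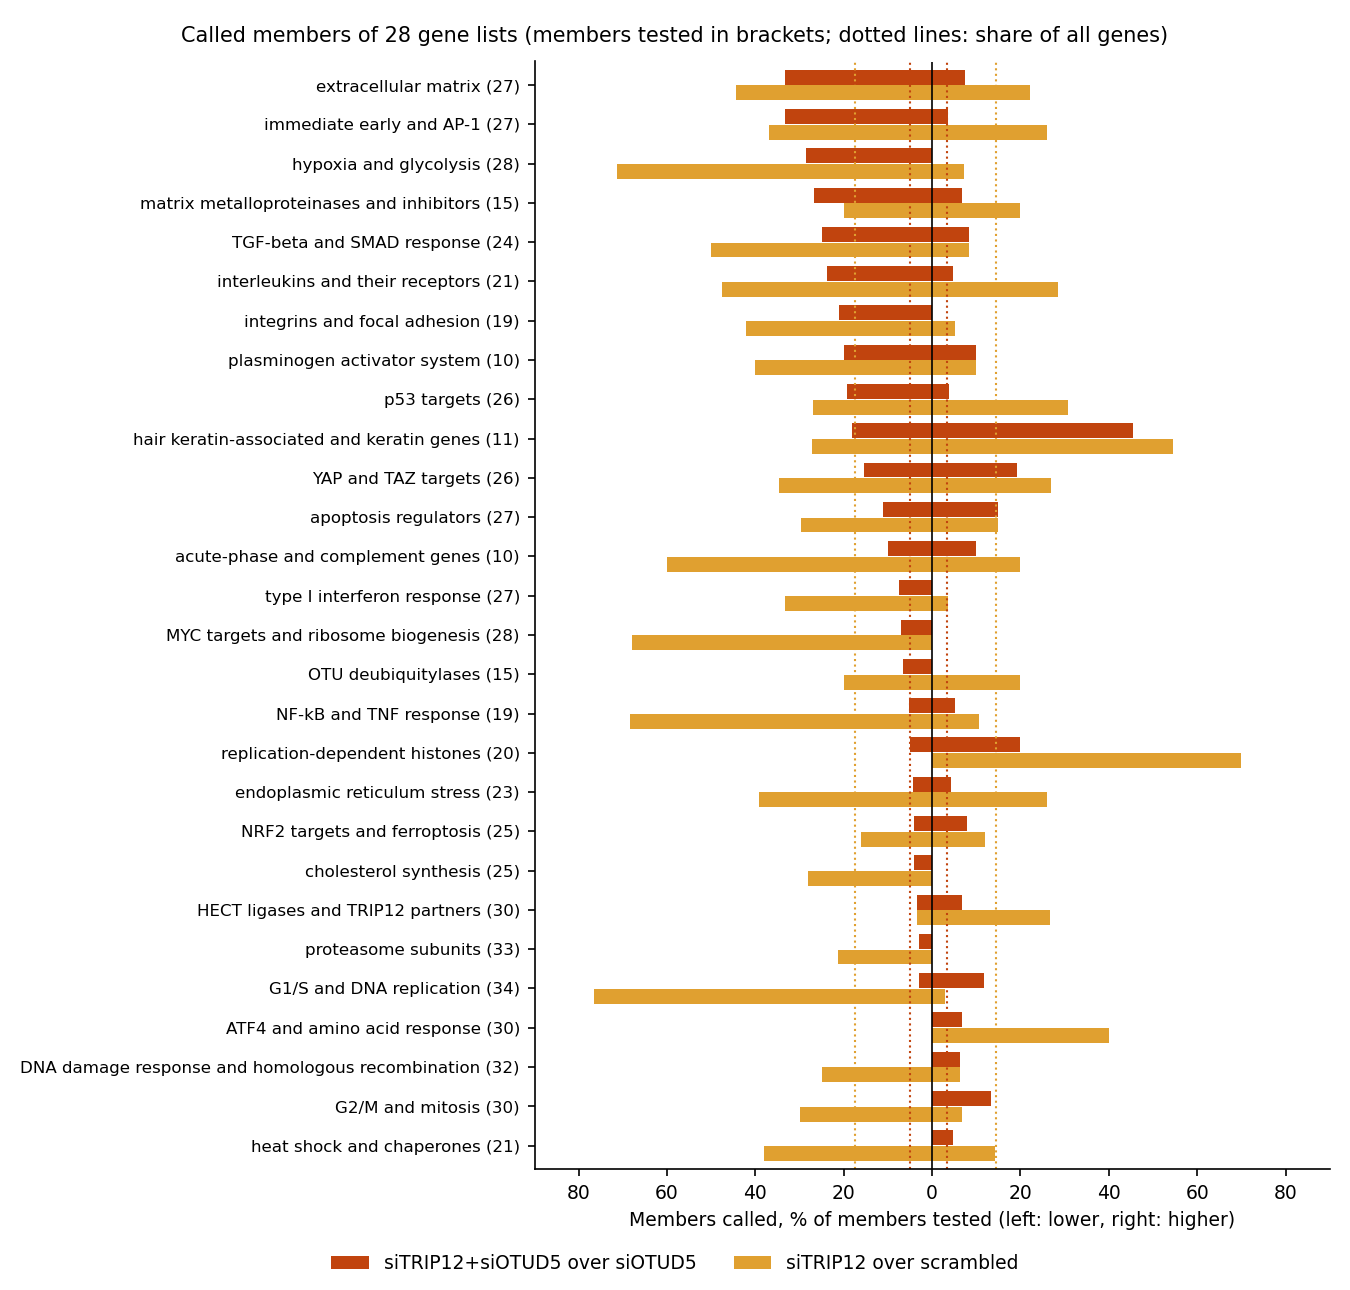
Percent of the tested members of each of 28 gene lists called lower (left of 0) and higher (right of 0), for siTRIP12+siOTUD5 over siOTUD5 and, under it, for siTRIP12 over scrambled, with dotted lines at the share of all genes tested. Matrix, immediate early and hypoxia lists reach farthest left with OTUD5 low, and the G1/S list has 1 fall of 34 with OTUD5 low and 26 with OTUD5 intact.

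The same siRNA in cells with intact OTUD5 gives a second view of TRIP12 loss, and its 6 libraries share none with the comparison above. There siTRIP12 changed 5194 genes relative to scrambled (31.9%), with 2367 higher (14.5%) and 2827 lower (17.4%). Upper-quartile scaling moved the share of these calls that were higher to 57.0%, against 45.6% in the reported fit. Without TRIP12 and OTUD5, 943 genes were called in the same direction in both backgrounds, which is 68.9% of the 1369 called with OTUD5 low and 18.2% of the 5192 called with OTUD5 intact. They were 352 genes higher in both, or 14.9% of those higher with OTUD5 intact, and 591 genes lower in both, or 20.9% of those lower. The 943 became 1555 without scrambled replicate 3, 576, 535 and 553 without siOTUD5 replicate 1, 2 or 3, and 525, 647 and 604 without siTRIP12+siOTUD5 replicate 1, 2 or 3. Without any other library they were 770 to 895. A further 38 genes were called in opposite directions. The change was smaller in absolute log2 terms with OTUD5 low for 675 (71.6%) of the 943.

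Across the 16281 genes the changes correlated with Pearson's r of 0.296 and Spearman's rho of 0.419, and 65.7% had the same sign. Among the 12735 genes with a mean of at least 50 reads r was 0.397, and among the 5192 called with OTUD5 intact it was 0.546. A total-least-squares line put the change with OTUD5 low at 0.425 of that with OTUD5 intact over all 16281 genes, at 0.358 in the genes with at least 50 reads and at 0.285 in those 5192 genes. These are values across genes, which are not independent of each other, and no p is given. The 5192 genes were chosen by the change with OTUD5 intact, which itself enters their slope.

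**Figure D4:**
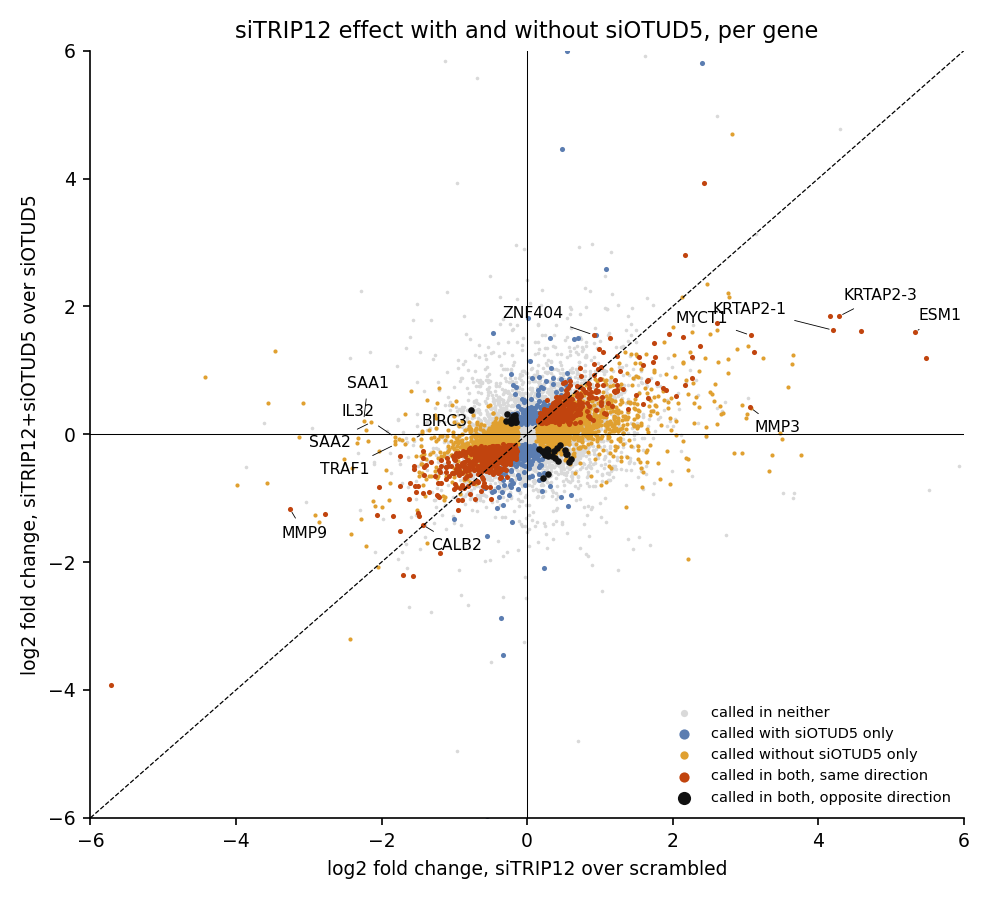
Log2 fold change by siTRIP12 with OTUD5 low (siTRIP12+siOTUD5 relative to siOTUD5, vertical) and with OTUD5 intact (siTRIP12 relative to scrambled, horizontal), 1 point per gene, coloured by the comparisons in which it was called, with 33 genes beyond the axis limit of 6. Genes called in both lie mostly between the horizontal axis and the dashed line of equal change, while SAA1, SAA2, IL32 and TRAF1 lie near the horizontal axis, far to the left.

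The difference between the backgrounds was tested as an interaction, in which a positive value means that the change by siTRIP12 was more positive with OTUD5 low. It was called for 1329 genes (8.16%), 751 positive (4.61%) and 578 negative (3.55%). With upper-quartile scaling 46.4% of the calls were positive, against 56.5% in the reported fit, so the balance of signs is not firm. The count was 844, 782 and 734 without siOTUD5 replicate 1, 2 or 3, and 765, 1155 and 768 without siTRIP12+siOTUD5 replicate 1, 2 or 3. It was 1158, 890 and 846 without siTRIP12 replicate 1, 2 or 3, and 1105, 1311 and 1794 without scrambled replicate 1, 2 or 3. Leaving out TRIP12 and OTUD5, 996 (75.0%) of 1328 such genes were called with OTUD5 intact and not with OTUD5 low. A further 166 (12.5%) were called in both in the same direction, and in 164 of these the change was smaller with OTUD5 low. Another 84 (6.33%) were called only with OTUD5 low, and 38 (2.86%) in opposite directions.

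Among protein-coding genes averaging 100 reads or more in their highest group, 5 of the 6 largest positive interactions were in genes that fell by siTRIP12 with OTUD5 intact and were not called with OTUD5 low. SAA1 and SAA2 (serum amyloid A, chr11:18266264-18269967 and chr11:18238236-18248668) are close copies that share reads. SAA1 was at 16.04, 16.2 and 13.7 CPM in siTRIP12+siOTUD5, against 12.9, 12.9 and 13.9 CPM in siOTUD5, and averaged 3.80 ± 0.385 CPM in siTRIP12 and 18.02 ± 1.72 CPM in scrambled libraries (SD, n = 3 each). The groups with OTUD5 low overlapped (log2 fold change 0.21 ± 0.10, adjusted p = 0.213), whereas siTRIP12 alone gave -2.25 ± 0.11, and the interaction was 2.46 ± 0.15 (adjusted p = 4.66e-08). SAA2 had the same pattern, with an interaction of 2.33 ± 0.19 (adjusted p = 4.86e-07). IL32, a cytokine gene, was at 29.6, 29.3 and 25.9 CPM in siTRIP12+siOTUD5, against 30.6, 32.1 and 24.98 CPM in siOTUD5, and averaged 10.1 ± 0.621 CPM in siTRIP12 and 35.6 ± 3.52 CPM in scrambled (interaction 1.77 ± 0.14, adjusted p = 4.55e-07). TRAF1, an adaptor of TNF receptors, was at 15.6, 14.6 and 13.7 CPM in siTRIP12+siOTUD5, against 17.5, 17.4 and 14.1 CPM in siOTUD5, and averaged 6.02 ± 0.647 CPM in siTRIP12 and 21.1 ± 1.45 CPM in scrambled (interaction 1.65 ± 0.15, adjusted p = 1.58e-06). BIRC3, a ubiquitin ligase of the TNF pathway, was at 7.24, 7.001 and 8.08 CPM in siTRIP12+siOTUD5, against 6.42, 8.28 and 8.80 CPM in siOTUD5, and averaged 2.64 ± 0.183 CPM in siTRIP12 and 7.79 ± 0.724 CPM in scrambled (interaction 1.49 ± 0.19, adjusted p = 8.01e-05). In all of these genes the libraries overlapped with OTUD5 low and did not with OTUD5 intact, where siTRIP12 libraries were far below scrambled ones. MMP9 differed from them in that it fell in both backgrounds, by 1.16 with OTUD5 low and by 3.26 with OTUD5 intact on the log2 scale (interaction 2.10 ± 0.14, adjusted p = 1.42e-07).

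Of the 3 promoters found for the 6 genes with the largest positive interactions by this filter, those of IL32 and BIRC3 held the NF-kB motif, and they are shown for that reason. Both are from RefSeq (GRCh38.p14, plus strand), IL32 at chr16:3065153-3065452 and BIRC3 at chr11:102317234-102317533. Capitals mark the NF-kB motif, searched as a consensus of 10 letters on both strands, which matched at bases 152 and 153 of the IL32 window, overlapping, and at bases 52 and 116 of the BIRC3 window.
IL32: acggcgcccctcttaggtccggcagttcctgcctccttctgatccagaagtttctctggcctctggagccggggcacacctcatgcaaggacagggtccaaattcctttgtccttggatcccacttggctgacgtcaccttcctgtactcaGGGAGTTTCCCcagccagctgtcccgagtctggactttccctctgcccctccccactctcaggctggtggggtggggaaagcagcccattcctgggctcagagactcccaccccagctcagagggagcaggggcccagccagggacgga
BIRC3: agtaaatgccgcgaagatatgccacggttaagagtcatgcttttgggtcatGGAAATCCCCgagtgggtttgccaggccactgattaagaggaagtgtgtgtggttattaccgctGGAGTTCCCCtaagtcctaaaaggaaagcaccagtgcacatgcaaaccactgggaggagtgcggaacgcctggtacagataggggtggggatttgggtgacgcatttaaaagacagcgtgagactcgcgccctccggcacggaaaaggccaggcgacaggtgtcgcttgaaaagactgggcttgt
The NF-kB motif stood in 12.6% of the 11893 promoters of tested genes, in 14.5% of those with a positive interaction and in 10.7% of those with a negative one. It stood in 11.2% of promoters of genes that rose and 14% of those that fell with OTUD5 low. A match is a stretch of letters, not a measured binding site, and a promoter without one says nothing about the factor.

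Over all genes tested, 3.35% rose and 5.07% fell with OTUD5 low, and 14.5% rose and 17.4% fell with OTUD5 intact. In the NF-kB and TNF list, with OTUD5 low 1 of 19 tested members rose and 1 fell, and with OTUD5 intact 2 rose and 13 fell, with median log2 fold changes of -0.06 and -0.49. The interaction was called for 8 of the 19, all positive, and for 7 with upper-quartile scaling, while 8.16% of all genes were called. The other 11 were not called, among them CXCL8 at -0.14. The G1/S and replication list had 4 higher and 1 lower with OTUD5 low and 1 higher and 26 lower with OTUD5 intact, with medians of 0.03 and -0.32. The interaction was positive for 18 of its 34 members and negative for 0, and positive for 14 with upper-quartile scaling. RRM2 was called in opposite directions, at 346, 336 and 341 CPM in siTRIP12+siOTUD5, against 295, 292 and 282 CPM in siOTUD5, while it averaged 293 ± 8.10 CPM in siTRIP12 and 344 ± 17.2 CPM in scrambled (interaction 0.46 ± 0.07, adjusted p = 0.000424). Of 28 MYC targets and ribosome biogenesis genes, 0 were higher and 2 lower with OTUD5 low, and 0 higher and 19 lower with OTUD5 intact. This list had 8 positive interactions and 1 negative. TGF-beta genes had 8 positive interactions and 1 negative among 24. Hypoxia genes, with 8 of 28 lower with OTUD5 low and 20 lower with OTUD5 intact, had 3 positive interactions and 1 negative. Extracellular matrix genes had 2 of each sign among 27. These counts stand beside the 8.16% of all genes with a called interaction. For the hypoxia list the median log2 fold change was -0.17 with OTUD5 low and -0.26 with OTUD5 intact.

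By the same filter, the largest negative interactions were in genes that siTRIP12 raised strongly with OTUD5 intact and less so with OTUD5 low. ESM1 (endocan, a secreted proteoglycan, chr5:54977867-54985593) was at 2.87, 2.17 and 2.32 CPM in siTRIP12+siOTUD5, against 0.850, 0.727 and 0.853 CPM in siOTUD5, and averaged 14.7 ± 2.12 CPM in siTRIP12 and 0.363 ± 0.0317 CPM in scrambled. Its rise was 1.59 ± 0.18 with OTUD5 low and 5.32 ± 0.19 with OTUD5 intact on the log2 scale (interaction -3.73 ± 0.27, adjusted p = 1.91e-07). The KRTAP2 genes had interactions of -2.31 to -2.96, with KRTAP2-3 averaging 44.6 ± 5.22 CPM in siTRIP12 and 2.28 ± 0.4999 CPM in scrambled. MMP3 was at 17.2, 15.1 and 17.7 CPM in siTRIP12+siOTUD5, against 13.02, 12.2 and 12.2 CPM in siOTUD5, and averaged 46.8 ± 1.78 CPM in siTRIP12 and 5.60 ± 1.42 CPM in scrambled (interaction -2.64 ± 0.17, adjusted p = 1.61e-07). For these genes the siTRIP12+siOTUD5 level lay below that of siTRIP12 and the siOTUD5 level above that of scrambled. MYCT1 was another, with an interaction of -1.52 ± 0.15 (adjusted p = 8.82e-06), although its level was highest in siTRIP12+siOTUD5, where it averaged 77.5 ± 8.44 CPM, against 45.8 ± 4.06 CPM in siTRIP12 (SD, n = 3 each). The 6 largest positive and 6 largest negative interactions by this filter were called in every alternative setting run and without each library.

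**Figure D5:**
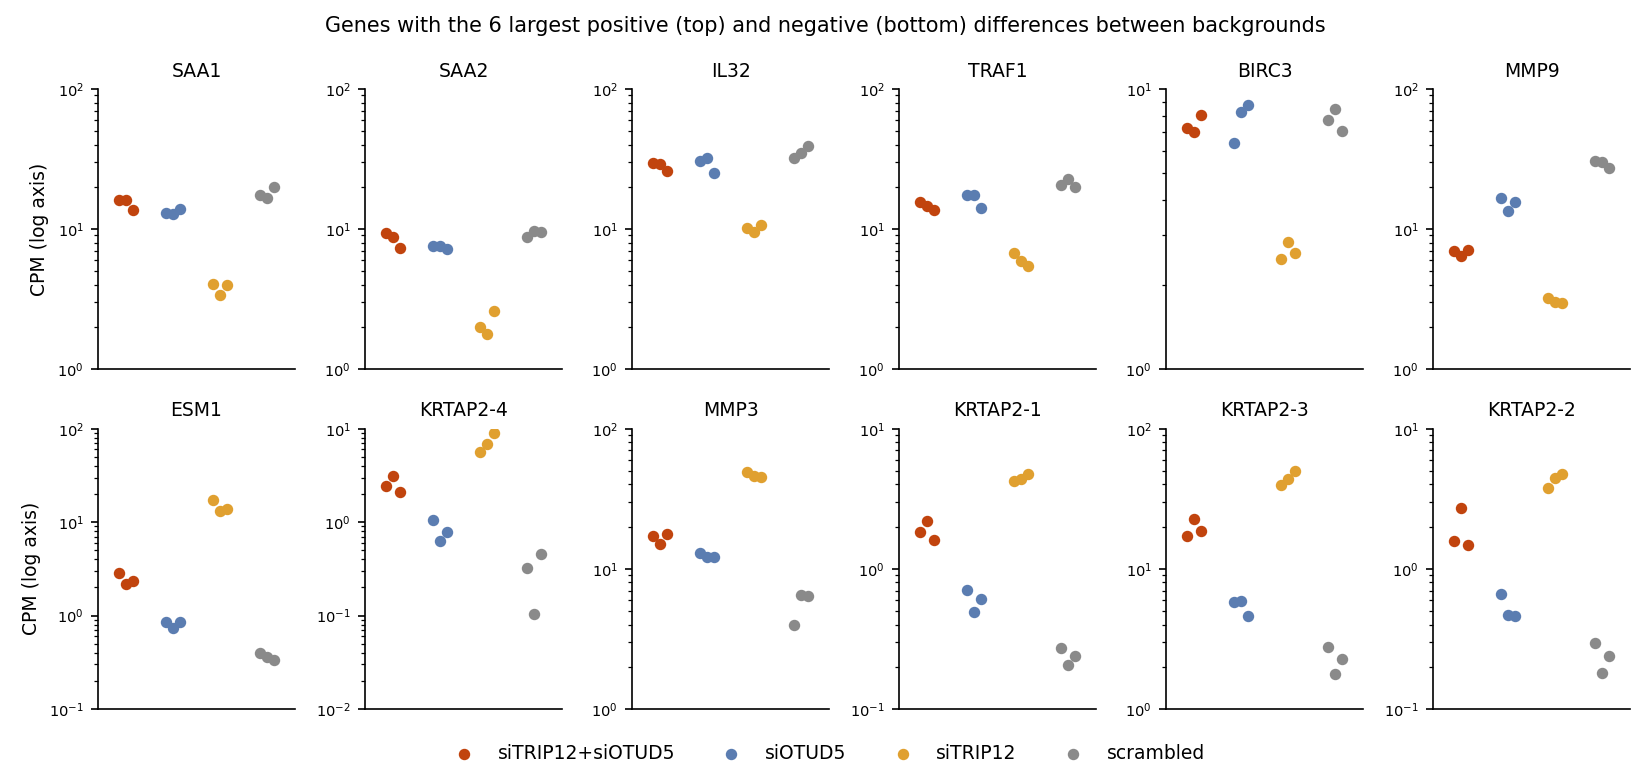
CPM of the 12 genes with the largest interactions (averaging 100 reads or more in their highest group) in every library of the 4 groups, on a log axis, with points for libraries. The 5 inflammatory genes SAA1, SAA2, IL32, TRAF1 and BIRC3 are low only in the siTRIP12 libraries, and ESM1, the KRTAP2 genes and MMP3 are highest there.

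Other genes changed by about the same amount in both backgrounds. CALB2 fell by 1.41 with OTUD5 low and by 1.44 with OTUD5 intact on the log2 scale, and its interaction was 0.02 ± 0.18 (adjusted p = 0.966). FGF5 rose by 0.92 in both (interaction 0.01 ± 0.13, adjusted p = 0.986). FOSB, PLA2G2D, CXCL8, ADAM8, PLXNA4 and RAB28 had interactions between -0.14 and 0.27 on the log2 scale, none of them called. A p that misses the threshold does not show that the effects were equal, and the SE of the interaction was as large as 0.31 for FOSB. ZNF404 and VGF, in contrast, changed more with OTUD5 low. ZNF404 rose by 1.55 with OTUD5 low and by 0.92 with OTUD5 intact (interaction 0.63 ± 0.14, adjusted p = 0.00951). VGF fell by 1.11 with OTUD5 low, against a log2 change of -0.32 ± 0.13 with OTUD5 intact that was not called (interaction -0.79 ± 0.18, adjusted p = 0.0119).

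Among the 38 genes called in opposite directions, the 4 with the smallest interaction p were lower with OTUD5 low and higher with it intact, namely ESYT2, SLC19A1, BOD1 and STC1. BOD1, a protein of chromosome biorientation, was at 31.1, 32.4 and 29.3 CPM in siTRIP12+siOTUD5, against 38.4, 38.6 and 38.02 CPM in siOTUD5, and averaged 32.5 ± 1.35 CPM in siTRIP12 and 22.2 ± 1.95 CPM in scrambled (interaction -0.86 ± 0.10, adjusted p = 4.45e-05). STC1, the secreted glycoprotein stanniocalcin, was at 518, 512 and 538 CPM in siTRIP12+siOTUD5, against 657, 584 and 615 CPM in siOTUD5, and averaged 468 ± 35.9 CPM in siTRIP12 and 327 ± 22.7 CPM in scrambled (interaction -0.76 ± 0.09, adjusted p = 5.89e-05). In each gene both groups given siTRIP12 were near each other, and siOTUD5 and scrambled lay on either side. The falls with OTUD5 low were small, at -0.17 for ESYT2 to -0.31 for BOD1 on the log2 scale. Their calls were lost in 6 (ESYT2), 4 (SLC19A1), 1 (BOD1) and 5 (STC1) of 6 fits without 1 library, with highest adjusted p of 0.137, 0.0696, 0.064 and 0.143.

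Genes called only with OTUD5 low included several that siOTUD5 itself had lowered relative to scrambled, by 2.22 for TOMM22 and 1.42 for TOP1MT on the log2 scale. TOMM22, an import receptor of the mitochondrial outer membrane, was at 33.9, 32.5 and 33.5 CPM in siTRIP12+siOTUD5, against 22.9, 22.8 and 24.5 CPM in siOTUD5, and averaged 106 ± 4.88 CPM in siTRIP12 and 109 ± 11.9 CPM in scrambled. Its log2 fold change was 0.51 ± 0.07 with OTUD5 low (adjusted p = 0.000285) and -0.04 ± 0.07 with OTUD5 intact, with an interaction of 0.55 ± 0.10 (adjusted p = 0.00215). TOP1MT, the mitochondrial topoisomerase, was at 24.6, 26.3 and 30.6 CPM in siTRIP12+siOTUD5, against 19.4, 21.2 and 19.3 CPM in siOTUD5, and averaged 49.2 ± 1.87 CPM in siTRIP12 and 53.4 ± 3.99 CPM in scrambled (interaction 0.57 ± 0.12, adjusted p = 0.00567). ALDH18A1 was at 65.1, 70.6 and 74.4 CPM in siTRIP12+siOTUD5, against 56.5, 60.7 and 57.5 CPM in siOTUD5, and averaged 128 ± 2.68 CPM in siTRIP12 and 139 ± 3.61 CPM in scrambled (interaction 0.38 ± 0.08, adjusted p = 0.00637). All 3 were higher in every siTRIP12+siOTUD5 library than in any siOTUD5 library. The groups did not overlap for 33.1% of all genes, and the 3 were picked as called, so the separation is no further result. In siTRIP12+siOTUD5 all 3 remained far below the groups without siOTUD5. The siOTUD5 libraries stand in both the fall by siOTUD5 and the rise by siTRIP12, so no relation between the 2 changes is drawn. MYBL2, a transcription factor of the cell cycle, rose only with OTUD5 low (0.28 ± 0.05, interaction 0.38 ± 0.07, adjusted p = 0.00375), and DVL1, a WNT pathway adaptor, fell only with OTUD5 low (-0.28 ± 0.05, interaction -0.37 ± 0.08, adjusted p = 0.00608).

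Among long non-coding RNAs, where rises outnumbered falls, LOC100505715 was at 21.4, 22.9 and 21.9 CPM in siTRIP12+siOTUD5, against 6.76, 8.10 and 8.38 CPM in siOTUD5 (log2 fold change 1.51 ± 0.09, adjusted p = 4.13e-08). LOC151760 was at 15.3, 16.7 and 15.4 CPM in siTRIP12+siOTUD5, against 7.72, 7.34 and 5.31 CPM in siOTUD5 (log2 fold change 1.21 ± 0.14, adjusted p = 6.96e-05). Both were among the 14 genes that passed the test against a fold of 1.5. LINC02310 was at 8.88, 8.43 and 7.63 CPM in siTRIP12+siOTUD5, against 5.22, 3.996 and 3.73 CPM in siOTUD5, and averaged 4.05 ± 0.607 CPM in siTRIP12 and 4.72 ± 0.496 CPM in scrambled, so it was high only where both siRNAs were given (interaction 1.16 ± 0.21, adjusted p = 0.00226). Among the falls, LOC105371453 was at 16.4, 16.7 and 16.6 CPM in siTRIP12+siOTUD5, against 26.2, 26.7 and 23.6 CPM in siOTUD5 (log2 fold change -0.62 ± 0.10, adjusted p = 0.000641). The rest of the 14 genes were TRIP12, CALB2, UCN2, MMP9, MYCT1, ZNF404, ESM1, KRTAP2-1, KRTAP2-2, KRTAP2-3, DISP2 and LOC102725180. DISP2 was at 0.748, 0.766 and 0.630 CPM in siTRIP12+siOTUD5, against 2.13, 2.10 and 2.22 CPM in siOTUD5. LOC102725180 had a mean of 17 reads in siTRIP12+siOTUD5 and 0.667 reads in siOTUD5 libraries, and no fold is given for it.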

How the data were processed

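RNA of 12 libraries was sequenced, 3 in each of 4 groups, of which the 6 of siTRIP12+siOTUD5 and siOTUD5 are compared here. The authors deposited a table of whole-number read counts per gene and library, with FPKM and TPM values of the authors beside them, which are scaled to library size and transcript length. Per the submitters' processing notes, HISAT2, StringTie and GRCh38 were used, with versions, roles and the strand setting of the counting not given in the sources used here. Antisense and overlapping genes and near-identical copies are therefore uncertain. The cell line label carries a number that grows over the samples, and the series design gives only HT1080, so all 12 are treated as HT1080.

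Counts were tested in R 4.3.3 with edgeR 4.0.16, with TMM scaling and filterByExpr on the 4 groups, which kept 16283 of 46427 genes. All 12 libraries entered a robust quasi-likelihood model of group means, with 8 residual degrees of freedom and a biological coefficient of variation of 0.0822. Calls are at a Benjamini-Hochberg adjusted p under 0.05 over all genes tested. TPM were used only for marker sums, and FPKM for nothing reported. The steps were tested on simulated data. Totals of 37912312 reads or more limit precision mainly for genes of few reads.

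The gene lists, the members named and the tests were chosen with earlier results of these data known. The 28 lists hold 724 genes, of which 651 were tested. Genes named are TRIP12 and OTUD5, the 12 largest rises and 12 largest falls among called protein-coding genes whose libraries did not overlap and averaged 100 reads or more in the higher group, the 6 largest called interactions each way among protein-coding genes averaging 100 reads or more in the highest group, and up to 4 called members of each list with the smallest p. Long non-coding RNAs, genes past a fold of 1.5, genes of opposite direction or called only with siOTUD5, and genes lowered by siOTUD5 were chosen after their values were seen. Results of some single genes are not reported here. Promoters (250 bases before to 50 after the start, RefSeq, GRCh38.p14) were found for 83 of 114 named genes and were matched by gene ID.

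Alternatives were each library left out in turn, only the 6 libraries, limma-voom (limma 3.58.1), DESeq2 1.42.0, its size factors or upper-quartile factors in edgeR, the replicate number as a block, and other filters (none, or a mean of at least 50 reads). The fit without scrambled replicate 3 and the same settings for siTRIP12 alone and for both backgrounds together were added after seeing the data. Libraries of the same number did not deviate together (r of 0.00563, -0.00879 and -0.0232 for replicates 1, 2 and 3), so the numbers were not used as pairs.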

Additional observations from a re-analysis of the deposited data

Results flagged for a closer look

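Each gene below was picked out because the test of the interaction found that its log2 change by siTRIP12 with siOTUD5 (siTRIP12+siOTUD5 minus siOTUD5) differed from that without (siTRIP12 minus scrambled). The value is the first minus the second, on the log2 scale, and the test is edgeR's quasi-likelihood test adjusted over all genes. In inflammatory and acute-phase genes the difference was 2.46 for SAA1, 2.33 for SAA2, 1.77 for IL32, 1.65 for TRAF1, 1.49 for BIRC3, 1.01 for C3, 0.55 for IL11, 0.35 for TNFAIP2 and -1.46 for IL13RA2. In genes of matrix, proteolysis and adhesion it was 2.10 for MMP9, 0.69 for COL7A1, 0.66 for PLAU, 0.61 for S100A10, 0.38 for CD44, 0.34 for SPARC, -0.99 for SERPINB2, -2.64 for MMP3 and -3.73 for ESM1. In hair keratin-associated genes, whose copies share reads, it was -2.31 for KRTAP2-2, -2.44 for KRTAP2-3, -2.58 for KRTAP2-1 and -2.96 for KRTAP2-4.

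Genes of the cell cycle and chromatin had differences of 0.46 (RRM2), 0.38 (CCND1), 0.38 (MYBL2), -0.38 (CCNA2) and -0.51 (H2AC6). In TGF-beta, YAP and growth factor signalling the values were 0.62 for SMAD6, 0.55 for PMEPA1, -0.42 for SPRY2, -0.57 for WWTR1 and -0.37 for DVL1. In metabolism, mitochondria and stress they were 0.57 for TOP1MT, 0.55 for TOMM22, 0.38 for ALDH18A1, 0.36 for ACSL4, 0.35 for CALR, 0.33 for BNIP3L, 0.22 for TSR1 and -0.25 for RRS1. Of the rest, TRIP12 had 0.38, ZNF404 0.63, VGF -0.79, MYCT1 -1.52, ESYT2 -0.62, SLC19A1 -0.62, STC1 -0.76 and BOD1 -0.86. Leaving out 1 of the 12 libraries in turn, the call was lost at least once for 7 of these genes. It was lost in 11 fits for RRS1, 10 for TSR1, 10 for TNFAIP2, 9 for TRIP12, 8 for BNIP3L, 4 for H2AC6 and 2 for COL7A1.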

How the results depend on the processing

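The 1370 calls of the comparison became 2802 in a fit of only the 6 libraries and 2474 without scrambled replicate 3. Over the fits that left out 1 of the 6 libraries compared they ranged from 692 to 932. Calls of the comparison without another scrambled library or a siTRIP12 library were not counted. Other settings gave 1302 (limma-voom), 1737 (DESeq2), 1365 (its size factors in edgeR), 1378 (upper-quartile factors), 1469 (a mean of at least 50 reads) and 1225 (no filter). Of the 1370 genes, 516 were called without each of the 6 libraries of the comparison. Leaving out 1 of the 6 libraries compared, calls against a fold of 1.5 ranged from 8 to 12 (14 with all). Leaving out any 1 of the 12 libraries, calls of the interaction ranged from 734 to 1794. Genes called in the same direction in both backgrounds then ranged from 525 to 1555. With the replicate number as a block, which did not pair the libraries, the counts were 1220 for the comparison (1188 of the 1370), 12 against the fold of 1.5, 1140 for the interaction, 5036 for siTRIP12 alone and 848 for both backgrounds. The correlation of the change in both backgrounds was 0.397 with a mean of at least 50 reads, 0.546 in genes called for siTRIP12 alone, 0.199 to 0.264 without 1 library and 0.0363 with no filter on low counts. Changes near 0 turned sign for OTUD5 (0.0237 without siOTUD5 replicate 3, 0.0504 without siTRIP12+siOTUD5 replicate 3, range -0.124 to 0.0504), IL32 (0.0255 without siOTUD5 replicate 2, 0.0123 without siTRIP12+siOTUD5 replicate 3, range -0.15 to 0.0255) and BIRC3 (0.0166 without siOTUD5 replicate 3, range -0.199 to 0.0166), none of them called. TRIP12 kept its call and direction in every setting run. The cause of these dependences was not tested. Leaving 1 library out leaves 2 in its group and filters the genes anew, so those fits are not like for like with the reported one.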
